A study of Mus musculus with 8 samples.

Results

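The genes described here encode the proteins of the mitochondrial ribosome. They were taken as every gene of the deposited table whose symbol is Mrpl or Mrps followed by a number and at most 1 letter, and 78 of the 18635 genes in the table met this rule. By symbol, 49 of them belong to the large subunit (Mrpl) and 29 to the small subunit (Mrps). The question was whether the levels of these mRNAs differed between macrophages with and without Cre-driven loss of Phgdh, the enzyme that catalyses the first step of serine synthesis from glucose.

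RNA-seq was performed on tumor-educated macrophages (TEMs), which are bone marrow-derived macrophages cultured for 24 h in medium conditioned by AE17 cells, a murine mesothelioma line. The controls were 4 Phgdh fl/fl samples, which carry the floxed allele without Cre, and they were compared with 4 Phgdh fl/fl Cx3cr1-Cre samples. All 8 samples therefore shared the floxed Phgdh alleles and the conditioned medium. Cre is expressed from the Cx3cr1 locus, so the Cre samples also carry 1 altered Cx3cr1 allele, and samples with Cre on an unfloxed background were not analysed here. Loss of Phgdh and the presence of Cre cannot be told apart in this design. The paper's captions call the 4 samples of a genotype biologically independent. Neither the captions nor the labels say whether these samples came from separate mice, so that every p-value below measures the spread between these samples.

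The mitochondrial ribosome translates the mRNAs encoded by mitochondrial DNA, all of which specify membrane subunits of the respiratory chain and the ATP synthase. Its 2 ribosomal RNAs, mt-Rnr1 and mt-Rnr2, are transcribed in the organelle, whereas every protein of the ribosome is encoded in the nucleus, made in the cytosol and imported. Some of its proteins descend from bacterial ribosomal proteins, and others exist only in mitochondria. The symbols do not follow the structure throughout, because Mrps30 and Mrps18a are built into the large subunit, and Mrps36 is now known as a component of the 2-oxoglutarate dehydrogenase complex.

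The stretches upstream of the start of 3 members are shown because the lower level of these genes was called under all 19 settings described further on. The 3 stretches differ in the motifs they hold and do not cover every motif found near the starts of such genes. They are GRCm38.p6 sequences from RefSeq, limited to bases before the gene start that no annotated exon covers, and capitals mark a searched motif. The stretch of Mrpl48 (chr7:100608302-100608451, minus strand) held none of the motifs, although the most downstream of its 4 annotated starts has an ETS motif upstream, that of Mrps22 (chr9:98601680-98601829, minus strand) held an ETS motif, and that of Mrpl20 (chr4:155802728-155802877, plus strand) held an E-box.
Mrpl48: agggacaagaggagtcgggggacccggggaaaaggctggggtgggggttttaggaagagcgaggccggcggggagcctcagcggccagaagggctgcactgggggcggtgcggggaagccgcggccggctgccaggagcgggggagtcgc
Mrps22: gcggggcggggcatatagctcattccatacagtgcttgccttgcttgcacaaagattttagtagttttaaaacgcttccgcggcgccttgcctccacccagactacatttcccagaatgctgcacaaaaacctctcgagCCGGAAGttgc
Mrpl20: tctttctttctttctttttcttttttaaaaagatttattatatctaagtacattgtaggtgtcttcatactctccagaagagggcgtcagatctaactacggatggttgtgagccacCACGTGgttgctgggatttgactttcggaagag

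Across windows of 250 bases before to 50 bases after the start, 75 promoters of 69 members had an entry. The ETS motif (CCGGAAG on either strand) was in 34.7% of the members' promoters, 8.86% of all 32851 promoters and 17.7% of the 12661 promoters of genes tested here. The YY1 motif (AAGATGGC) was in 16.0% of the members' promoters and 4.51% of those of genes tested, and the NRF1 motif (GCGCATGCG) was in 9.33% and 3.61%. As a description without a test, the letters of these motifs were found in a larger share of the members' promoters than of the promoters of genes tested. This did not hold for the E-box (CACGTG), which was in 9.33% of the members' promoters and 9.97% of those of genes tested, or for the CRE (TGACGTCA), in 2.67% and 2.97%. The ATF4 motif (TGATGNAA) was in 0 of the 75 windows and in 2.36% of the windows of genes tested. Among members with an entry, the ETS motif was in 14 of the 31 genes called lower and in 12 of the 38 others. In the same order, the counts were 1 and 6 for NRF1, 5 and 7 for YY1, 4 and 1 for the E-box and 1 and 1 for the CRE. No difference between genes called lower and others was tested. Motif matches were counted on both strands without regard to overlap between motifs.

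The libraries held between 38219563 and 47027420 counted reads. Phgdh was at 117 ± 9.82 normalized counts (SD, n = 4) in control TEMs and 27.1 ± 9.39 in Cre TEMs, a log2 difference of -2.15, and the 2 groups did not overlap. Cx3cr1, the locus that carries Cre, was at 1075 ± 94.2 and 659.8 ± 32.2 normalized counts. All 8 macrophage markers checked were present (4 of them lower and 0 higher in Cre TEMs), while the defining markers of T cells, neutrophils and erythroid cells (0 of 4, 0 of 4 and 0 of 3 listed) were not in the table. The summed B cell, dendritic cell, fibroblast and mesothelial markers reached at most 38.9 normalized counts in any sample, against at least 1008580 for the macrophage markers. A principal component with 13.2% of the variance set replicates 1 and 4 of both genotypes apart from replicates 2 and 3. What this split stands for is not given in the labels.

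In Cre TEMs, the genes of the mitochondrial ribosome were lower as a group by a small amount. Of the 78 members, 77 reached a mean of 10 normalized counts and were tested, and 35 of them fell and 1 rose at an adjusted p under 0.05 (limma on log2(normalized count + 1), Benjamini-Hochberg over all genes). Over all 13629 genes tested, 20.3% were called lower and 20.8% higher. The fitted log2 difference (Cre minus control) was below 0 in 71 of the 77 members and its median was -0.11, beside a median of -0.0018 over all genes tested. It was below 0 in 60 of the 77 after a correction for GC content and length, and in 58 with replicates 1 and 4 alone. In 27 members, every Cre sample lay below every control sample, against 18.2% of all genes tested, and in 1 member every Cre sample lay above, against 18.4%. Among the 7754 genes tested whose mean level lay within the range of the members, 1601 were called lower and 1653 higher, with a median of -0.0044. In bulk RNA, less of an mRNA per cell and fewer cells that carry it cannot be told apart.

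Members of both subunits fell. Of the 48 members of the large subunit that were tested, 20 fell, 1 rose and 27 did not pass the threshold, with a median log2 difference of -0.10. Of the 29 members of the small subunit, 15 fell, 0 rose and 14 did not pass, with a median of -0.12. The large subunit spanned a range from -0.54 to 0.10, and the small subunit from -0.28 to 0.0052. The count for the small subunit rested in part on single libraries, as it was 8 without control replicate 2 and 9 without Cre replicate 3. With replicates 1 and 4 alone, 4 large and 4 small subunit members fell (medians -0.072 and -0.095), and with replicates 2 and 3 alone 17 and 10 did (medians -0.11 and -0.13). Over all genes, these fits of 2 samples against 2 called 10.3% and 16.7% lower.

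**Figure D1:**
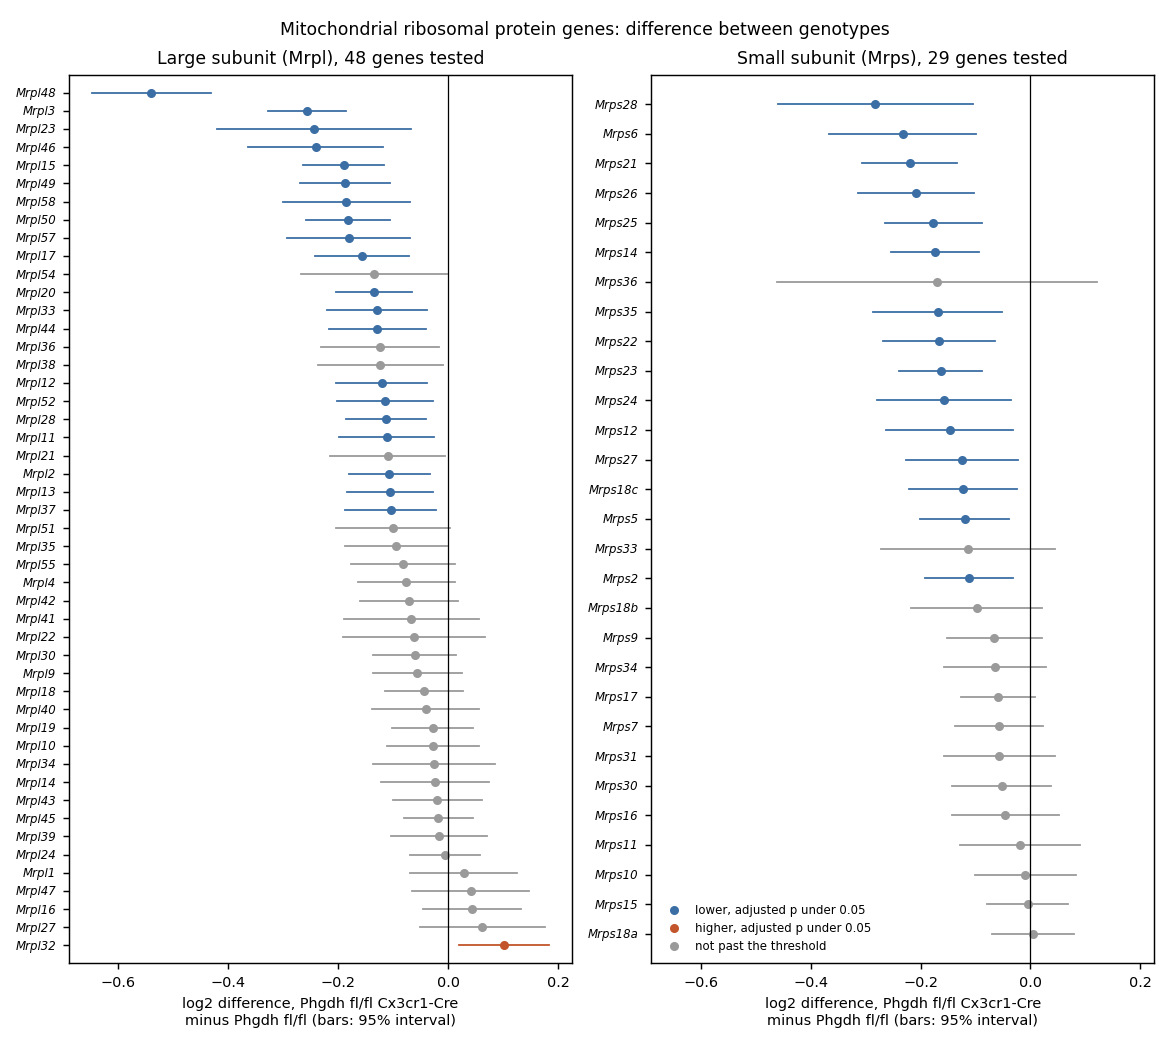
Each row is a gene of the mitochondrial ribosome, and the x axis gives the log2 difference between Cre and control TEMs with its 95% confidence interval (limma, n = 4 per genotype). The 20 large and 15 small subunit genes called lower are in blue, Mrpl32 as the only gene called higher is in red, and Mrpl48 lies apart from the rest at -0.54.

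The summed normalized count of the members was 78548, 81510, 81939 and 82036 in the control samples and 77463, 75510.2, 75209 and 75823 in the Cre samples. Every Cre sample was below every control sample, and control replicate 1 and Cre replicate 1 came closest to each other. As a share of all counted reads, the large subunit took 0.125% ± 0.0023 (SD, n = 4) in control and 0.119% ± 0.0015 in Cre TEMs, and the small subunit took 0.0622% ± 0.0013 and 0.0586% ± 0.00058. For both subunits, the exact two-sided permutation test cannot give a p-value below 0.0286 with 4 samples against 4.

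**Figure D2:**
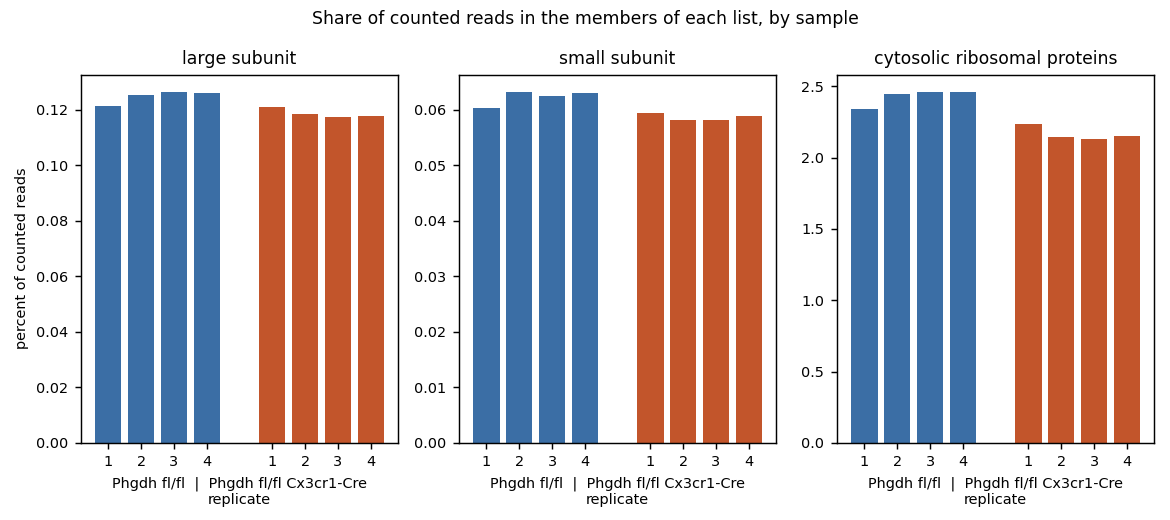
Bars give the percentage of counted reads that fell in large subunit genes, small subunit genes and, for comparison, the proteins of the cytosolic ribosome, for replicates 1 to 4 of control (blue) and Cre (red) TEMs. In each panel all 4 Cre samples lie below all 4 control samples, by a small step on an axis that starts at 0.

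Mrpl48, a large subunit protein of the central protuberance that has no bacterial counterpart, had the lowest log2 difference of all members. Its gene lies on chromosome 7 (100545751 to 100608301, minus strand, mm10). The normalized count was 689.8, 764, 759 and 709 in control samples and 485, 508, 483 and 532 in Cre samples. The 2 groups were well apart, and the mean fell by 31.3% (log2 difference -0.54 ± 0.052 SE, adjusted p = 4.3e-08). The pseudogene Mrpl48-ps on chromosome 4, whose annotated transcript of 636 bases is 98.1% identical to Mrpl48 mRNA, moved the other way, from 8.37, 5.52, 10.3 and 10.5 normalized counts in control samples to 74.3, 64.4, 41.7 and 57.4 in Cre samples (log2 difference 2.65 ± 0.26 SE, adjusted p = 4.2e-08). Reads of 2 such similar sequences can be assigned to either, so that the level of each is uncertain. The sum of both was 739 ± 36.0 normalized counts (SD, n = 4) in control and 561 ± 27.5 in Cre TEMs, with ranges that did not overlap, and its log2 difference was -0.40 ± 0.052 SE (adjusted p = 2.6e-06).

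The surroundings of Mrpl48 also differed between genotypes. Of the 26 other genes tested within 1 Mb of it, 3 were called lower and 16 higher, which is 73.1% against 41.0% of all genes tested, and 23.1% had a log2 difference over 0.5 in size against 7.23% of all genes. Among neighbours chosen after their values were seen, Ucp2, an uncoupling protein of the inner mitochondrial membrane, had a log2 difference of -0.45, Stard10, a lipid transfer protein, 1.85 and Slco2b1, an organic anion transporter, 3.67. Rps3, a cytosolic ribosomal protein gene at -1.10 Mb from Mrpl48, fell from 38634 to 33393 normalized counts, while Gm14513, a gene whose 123 base transcript is 97.4% identical to Rps3 mRNA over 115 bases, went from 2.93 to 930.2 (log2 difference 8.29, adjusted p = 6.2e-13). Gm14513 is not among the genes tested within 2 Mb of Mrpl48. Both Rps3 and Gm14513 were named after their values were seen. The part of read assignment between such copies in these values was not tested, nor was whether the groups differ in DNA sequence around Mrpl48, so that its difference cannot be assigned to Phgdh from these data.

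**Figure D3:**
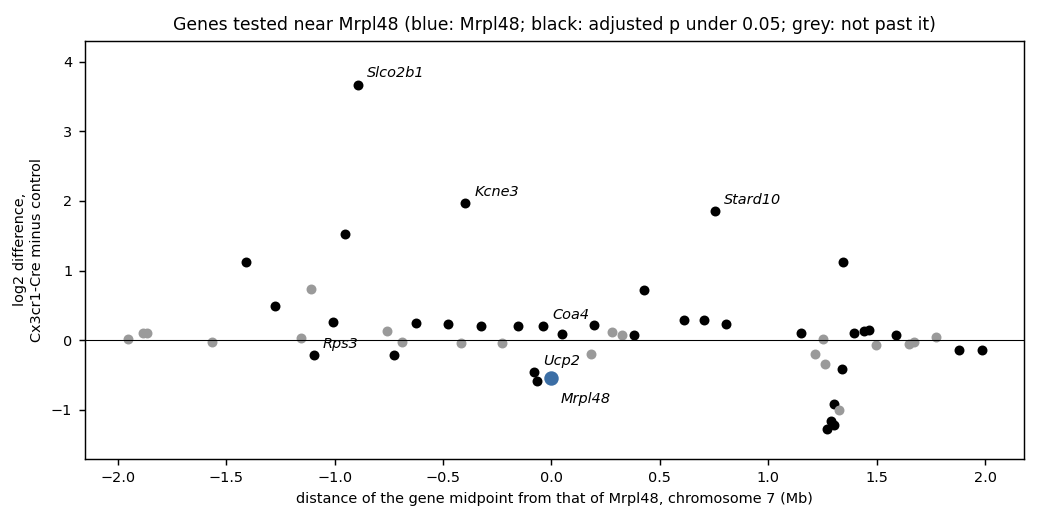
Points are the genes tested within 2 Mb of Mrpl48 on chromosome 7, by the distance between gene midpoints in Mb (x axis) and the log2 difference between Cre and control TEMs (y axis), with genes past an adjusted p of 0.05 in black and Mrpl48 in blue. Genes with large rises lie on both sides of Mrpl48, up to Slco2b1 at 3.67, whereas the largest falls lie to its right, near 1.3 Mb.

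The other members with the lowest values in the large subunit moved by less. Mrpl3, the homologue of a bacterial protein that reaches towards the peptidyl transferase centre, was at 1862, 1948, 1809 and 1924 normalized counts in control samples and at 1569.6, 1581, 1529 and 1631 in Cre samples. All 4 Cre samples were below the controls, and the mean fell by 16.3% (log2 difference -0.26 ± 0.034 SE, adjusted p = 3.2e-06). Mrpl15, another protein with a bacterial homologue, was at 1419, 1385, 1438 and 1391 in control and 1277, 1206, 1204 and 1252 in Cre samples, again without overlap (log2 difference -0.19 ± 0.035 SE, adjusted p = 0.00017). Mrpl46 and Mrpl49, which exist only in mitochondrial ribosomes, did not overlap between groups either, at 599.6 to 648 against 486 to 579 normalized counts for Mrpl46 and at 957 to 1002 against 835 to 872 for Mrpl49. Mrpl23, which sits beside the exit tunnel for the nascent chain, was called lower as well (log2 difference -0.24 ± 0.085 SE, adjusted p = 0.025), but its groups overlapped, since Cre replicate 4 at 214 lay above control replicate 4 at 207. That call was lost without any 1 of control replicates 2 and 3 and Cre replicates 1 and 2 (adjusted p from 0.060 to 0.086).

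In the small subunit, Mrps28 had the lowest log2 difference (-0.28 ± 0.085 SE, adjusted p = 0.011). Its normalized counts were 226, 255, 274 and 283 in control samples and 192, 232, 212 and 215 in Cre samples, so that Cre replicate 2 lay above control replicate 1. Mrps21, the homologue of bacterial S21, was at 1169, 1224, 1229 and 1187 in control and 1090.3, 975, 1002 and 1064 in Cre samples. Here all Cre samples were lower, and the mean fell by 14.1% (log2 difference -0.22 ± 0.041 SE, adjusted p = 0.0002). Mrps6 and Mrps14, which also have bacterial homologues, fell without overlap, from 437 ± 31.5 to 372 ± 19.8 normalized counts and from 1354 ± 47.7 to 1201 ± 42.1 (SD, n = 4). Mrps26 and Mrps25, found only in mitochondria, fell from 810.2 ± 42.6 to 701 ± 40.1 and from 965 ± 40.2 to 853 ± 22.6 normalized counts, without overlap. For Mrps25, 69.8% of the exon bases are also covered by Nr2c2 on the opposite strand. The authors' methods name a directional library kit, but the strand setting of the counting is not given in the sources used here.

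**Figure D4:**
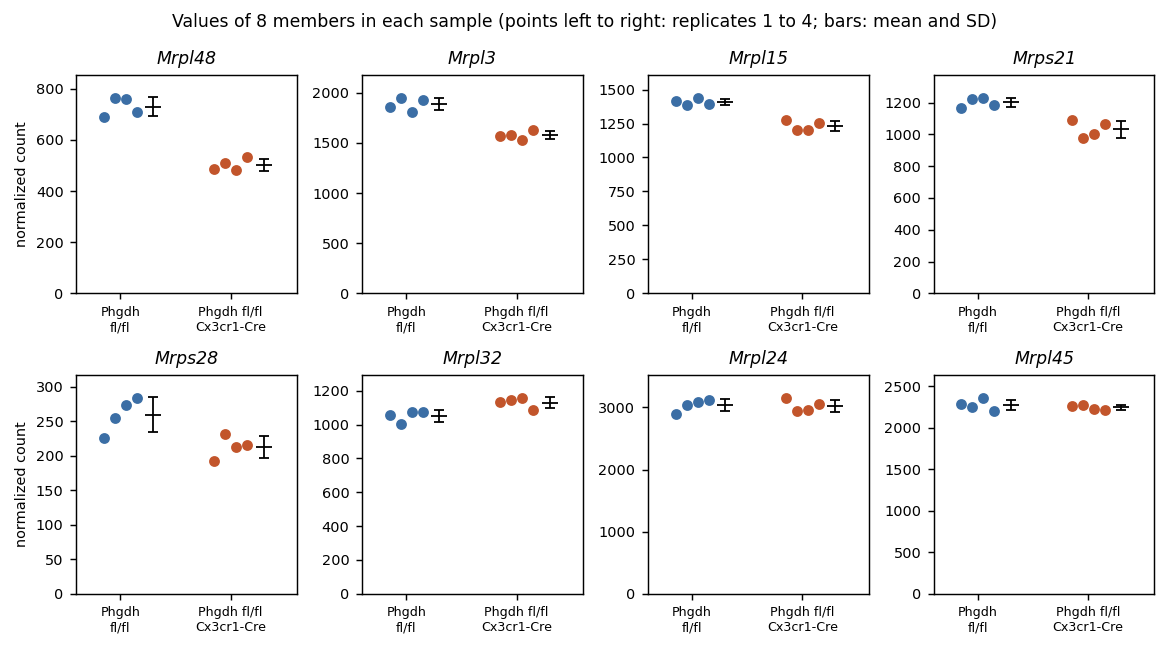
Normalized counts of 8 members in each sample of control (blue) and Cre (red) TEMs, with replicates 1 to 4 from left to right and the mean ± SD in black. Mrpl48, Mrpl3, Mrpl15 and Mrps21 are lower in every Cre sample, Mrps28 overlaps, Mrpl32 is higher in every Cre sample, and Mrpl24 and Mrpl45 overlap.

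Of the members with a role of their own in the ribosome, some were called lower and others were not, and no difference between them was tested. In the stalk that recruits translation factors, Mrpl12 fell (1490.1 ± 46.1 to 1371 ± 71.6 normalized counts, log2 difference -0.12, adjusted p = 0.018), whereas Mrpl10, which anchors it, had a log2 difference of -0.028 with a 95% interval from -0.11 to 0.057. Mrpl53, another stalk-side gene, was the member below the filter, at 0 to 6.20 normalized counts. As 88.0% of its exon bases are also shared with other annotated genes, no level can be given for it. Other members near the stalk were not picked out, so that the genes named here do not describe the stalk as a whole. Around the exit tunnel, Mrpl44 fell (log2 difference -0.13, adjusted p = 0.019), while Mrpl24 and Mrpl45, the member that tethers the ribosome to the inner membrane, had log2 differences of -0.0052 (95% interval -0.069 to 0.059) and -0.018 (-0.080 to 0.045). Mrpl58, a peptidyl-tRNA hydrolase that releases chains from stalled ribosomes, fell by 12.2%, from 628, 758, 655 and 677 to 574, 598, 599 and 616 normalized counts, without overlap (adjusted p = 0.010). Mrps12, a protein of the decoding centre, fell by 9.71%, also without overlap (log2 difference -0.15, adjusted p = 0.039). Of the 3 members related to bacterial S18, Mrps18c fell (log2 difference -0.12, adjusted p = 0.043), Mrps18b had a log2 difference of -0.097 (adjusted p = 0.19) and Mrps18a, the one in the large subunit, 0.0052 (adjusted p = 0.93). Mrps30, also in the large subunit, had a log2 difference of -0.052 (adjusted p = 0.36). With the GC and length correction, Mrps30 was called lower at -0.11 (limma, adjusted p = 0.049).

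Several of these calls were close to the threshold. After the GC and length correction, those of Mrpl12, Mrpl44, Mrps12 and Mrps18c were lost (adjusted p = 0.12, 0.13, 0.20 and 0.13). The call of Mrpl12 was also lost without control replicate 4 or Cre replicate 3 or 4 (adjusted p from 0.062 to 0.072), that of Mrpl44 without control replicate 3 or Cre replicate 2 or 4 (0.058 to 0.077) and that of Mrpl58 without control replicate 2 (0.053). For Mrps12 this happened without control replicate 2 or 3 or Cre replicate 2, 3 or 4 (0.053 to 0.12), and for Mrps18c without any 1 of control or Cre replicates 2, 3 and 4 (0.055 to 0.20). The call of Mrps12 was also lost with DESeq2, a replicate block and scaling to the total (adjusted p = 0.087, 0.052 and 0.063). That of Mrps18c was lost with DESeq2, quantile normalization, scaling to the total and limma without a trended prior (0.054, 0.073, 0.076 and 0.13). Limma without a trended prior also lost Mrpl12 and Mrpl44 (0.064 and 0.077). Samples of Mrpl12, Mrpl44 and Mrps18c overlapped between genotypes. Mrpl48, in contrast, had log2 differences between -0.57 and -0.52 over all fits that left out 1 library.

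Mrpl32 was the only member called higher. It was at 1059, 1002, 1073 and 1076 normalized counts in control samples and 1133, 1145, 1156 and 1084 in Cre samples, which did not overlap, although control replicate 4 and Cre replicate 4 were close. The log2 difference was 0.10 ± 0.039 SE (adjusted p = 0.041), and the call was lost with DESeq2 (adjusted p = 0.080), with the GC and length correction (adjusted p = 0.21) and without any 1 of control replicate 2 and Cre replicates 1, 2 and 3 (adjusted p from 0.077 to 0.13). Mrpl16 and Mrpl27, both homologues of bacterial proteins near the peptidyl transferase centre, followed at 0.044 and 0.062 (adjusted p = 0.45 and 0.39). The highest values in the small subunit after Mrps18a were those of Mrps15 at -0.0053 and Mrps10 at -0.0096. Mrps36, which is not a ribosomal protein in present use, was at 88.2 ± 17.8 and 77.3 ± 5.10 normalized counts, a log2 difference of -0.17 with a wide 95% interval from -0.46 to 0.12.

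Sorted by origin and not by subunit, 20 of the 46 members with a bacterial homologue fell and 1 rose (median log2 difference -0.088), and 15 of the 30 tested members classed as mitochondrial fell and 0 rose (median -0.12). Mrps18a and Mrps18b, relatives of bacterial S18 that take other places in the mitochondrial ribosome, were counted in the mitochondrial class, and Mrps36 in neither. Both classes therefore had members that fell and members that did not pass the test, and the difference between the classes was not tested. Across the 19 settings that used all samples or left out 1, 8 large subunit members (Mrpl48, Mrpl3, Mrpl46, Mrpl15, Mrpl49, Mrpl50, Mrpl17 and Mrpl20) and 8 small subunit members (Mrps28, Mrps6, Mrps21, Mrps26, Mrps25, Mrps14, Mrps22 and Mrps23) were called lower each time. Of these, Mrpl50, Mrpl17, Mrpl20, Mrps22 and Mrps23 were named after their values were seen.

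GC content and transcript length bear on the size of these values. The median GC content was 49.8% in the large and 49.2% in the small subunit, close to 49.2% over all genes tested, but the median exon length was 2542 and 2172 bases against 4077. After correction of every sample for GC content and length, 16 large subunit members fell with a median log2 difference of -0.067, and 12 small subunit members fell with a median of -0.10. Of these, 15 and 10 had also been called lower without the correction, and the others were called only with it. The same correction moved the calls over all genes from 2764 lower and 2830 higher to 3366 lower and 2168 higher, and their median to -0.022. The medians of both subunits were still below that of all genes, by less than without the correction.

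Per length, the members covered a wide range of levels in control TEMs. Dividing by the median length of the protein-coding transcripts, Mrpl20 (RPKM, reads scaled by transcript length and library size, of 76.9 ± 2.28, SD, n = 4), Mrps21 (68.5 ± 1.62) and Mrpl30 (58.6 ± 2.95) were highest, with the last of these within its spread of Mrps23 (58.2 ± 2.35) and Mrpl24 (57.2 ± 1.75). Apart from Mrpl53, the lowest level was that of Mrps36 (3.2 ± 0.65), followed by Mrps25 (3.67 ± 0.15) and Mrps26 (4.37 ± 0.23), and Mrps36 and Mrps25 did not differ beyond their spread. Mrps25 and Mrps26 have long annotated transcripts, and the choice of transcript sets such levels: by the union of all exons, Mrpl20 was at 22.8 and Mrps21 at 37.5. Mrpl30, Mrps23, Mrpl20 and Mrpl24 are named here for their place in this order.

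Many of these genes start close to another gene on the opposite strand, and 26 members had such a head-to-head partner. For 25 of them the partner was tested as well, with Mrpl46 and Mrps11 counted once each, as partners of one another. Among the members that fell, the partner was not called for 9, was called lower for 2 and was called higher for 1. Among the members not called, the partner was not called for 6, was called lower for 5 and was called higher for 1. Over all genes tested, 20.3% were called lower and 20.8% higher, and whether partners moved together was not tested. At the promoter that Mrpl46 and Mrps11 share, Mrpl46 fell (log2 difference -0.24) while Mrps11 was at -0.019 (adjusted p = 0.81). Mrpl32 and Psma2, a proteasome subunit, start 75 bases apart and went in opposite directions, at 0.10 and -0.14 (adjusted p = 0.041 and 0.0019). Mrpl49 and Fau, which encodes a cytosolic ribosomal protein fused to a ubiquitin-like domain, start 59 bases apart and both fell (-0.19 and -0.14). Mrps11 and the partners were named after their values were seen.

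Read counts of the ribosomal RNAs of the mitochondrial ribosome were higher in Cre TEMs, unlike those of most mRNAs of its proteins. mt-Rnr1, the small subunit rRNA, was at 17124 ± 1145 normalized counts (SD, n = 4) in control and 19291 ± 626 in Cre TEMs, without overlap (log2 difference 0.17 ± 0.035 SE, adjusted p = 0.00039). mt-Rnr2, the large subunit rRNA, rose as well (log2 difference 0.17 ± 0.043 SE, adjusted p = 0.0029), with overlapping samples. The authors' methods name a library kit but do not state whether rRNA was removed or poly(A) RNA was selected. The part of such a step in the rRNA counts was not tested, so that they need not follow the rRNA level in the cells. Of the 7 mitochondrial protein-coding genes in the table, which are the templates of this ribosome, 6 fell and 0 rose, with a median of -0.20. They included mt-Nd6, a complex I subunit (1272 ± 143 to 910.3 ± 121 normalized counts, log2 difference -0.49), and mt-Cytb, the complex III cytochrome (log2 difference -0.26). The 7th, mt-Co1, the catalytic subunit of cytochrome c oxidase, was at -0.018 (adjusted p = 0.65). Only 9 of the 15 mitochondrial symbols looked for were in the table, copies of mitochondrial DNA in the nucleus can take reads from them, and mt-Co1, named after its value was seen, had the highest count of them.

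Lists of other proteins that make or serve this ribosome had medians between -0.069 and -0.038, nearer to 0 than that of the members, but this order did not hold for all of them after the GC and length correction, when the ribosomal proteins with other symbols were at -0.11 and the synthetases at -0.074, against -0.085 for all members. Of the 5 ribosomal proteins that carry other symbols, 2 fell and 0 rose (median -0.069), namely Gadd45gip1, a large subunit protein at the tunnel exit (log2 difference -0.15), and Ptcd3, a small subunit protein (-0.15), whereas Chchd1 and Aurkaip1 were at -0.067 and -0.037 (adjusted p = 0.18 and 0.45). Of the 27 assembly factors, 5 fell and 0 rose (median -0.064). The lowest were Mrm3, which methylates the large subunit rRNA (194 ± 3.0 to 139.9 ± 14.1 normalized counts, log2 difference -0.48), and Rcc1l, an assembly factor of the large subunit (-0.31). Rpusd3 and Mettl15, at 0.26 and 0.11, were not called. Of the 16 translation factors, 5 fell and 1 rose (median -0.068): the elongation factor Tsfm fell (log2 difference -0.18), Taco1, the translational activator of mt-Co1, rose from 368 ± 33.2 to 436 ± 11.3 normalized counts (log2 difference 0.25, adjusted p = 0.0039), and the release factor Mtrf1l (-0.13) and the recycling factor Gfm2 (0.063) were not called. Of the 17 mitochondrial aminoacyl-tRNA synthetases, 3 fell and 0 rose (median -0.038), Pars2 among them (-0.21), and Ears2, Vars2 and Mars2 (-0.18, 0.048 and 0.079) were not called. The call of Gadd45gip1 was lost without control replicate 4 (adjusted p = 0.059), that of Tsfm without replicate 2 of either genotype (adjusted p = 0.067 and 0.052), and that of Pars2 without 6 of the 8 libraries in turn and with edgeR and DESeq2 (adjusted p = 0.056 and 0.099). The shares called lower were near the 20.3% of all genes called lower for the assembly factors and synthetases, and no difference between lists was tested.

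The members were set beside the lists nearest to them in function. Of the 85 tested proteins of the cytosolic ribosome, 77 fell and 0 rose, with a median of -0.19. The range ran from Rpl39l at -1.42 and Rps10 at -0.66 to Rpl41 at -0.044 and Rplp0 at -0.042, the last 2 of which were not called. The lower end of this range rests on low counts, with control means of 32.7 for Rpl39l and 114 for Rps10, beside 27938 for Rplp0. Of the 80 tested nuclear subunits of the respiratory chain, 45 fell and 2 rose (median -0.12), with Cox7a1 at -0.40 and Cox7c at -0.33 lowest, Cox6a2 at 0.33 highest and Atp5l at 0.20 not called. The call of Cox7a1 was lost without control replicate 3 or 4 or Cre replicate 2 or 3 (adjusted p from 0.067 to 0.10), and that of Cox6a2 without control replicate 1 or 3 or Cre replicate 1, 2 or 4 (adjusted p from 0.051 to 0.099). Of the 27 tested components of mitochondrial protein import, by which the members reach the organelle, 15 fell and 1 rose (median -0.13), including Tomm5, a small subunit of the outer membrane translocase, at -0.33, and Timm8b, an intermembrane space chaperone, at 0.15. Timm8a1 and Grpel2 (-0.29 and 0.080) were not called. The median of the members (-0.11) lay close to those of the respiratory chain and import lists, while after the GC and length correction it was -0.085, beside -0.075 for the respiratory chain and -0.14 for import. Of 16 cycling genes, 10 fell and 4 rose, with the replication licensing genes Mcm5 and Mcm6 at -0.49 and -0.44 and the mitotic genes Ccnb1 and Mki67 at 0.34 and 0.55, and the part of cell proliferation in the members' values was not tested.

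**Figure D5:**
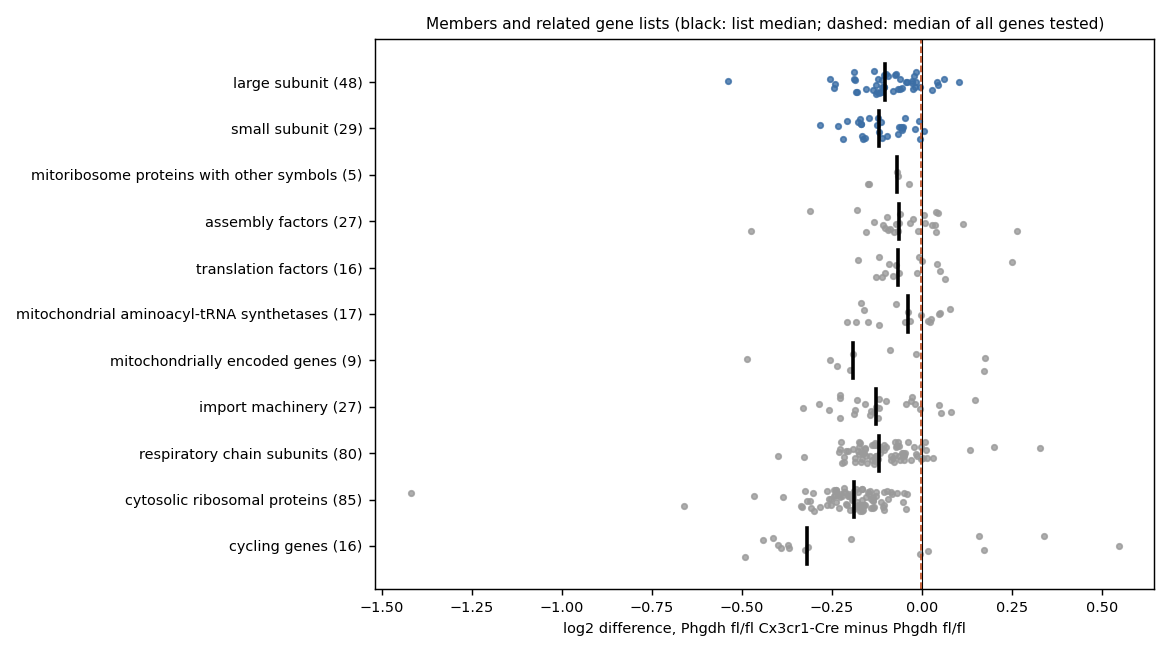
Points are genes, grouped by list with the number tested in parentheses, and the x axis gives the log2 difference between Cre and control TEMs. Black bars mark list medians, which are -0.10 and -0.12 for the 2 subunits (blue), -0.19 for the cytosolic ribosome and -0.32 for the cycling genes, and the dashed line marks the median of all genes tested at -0.0018.

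Counting limits apply to several members. Of the 78, 33 share exon bases with another annotated gene and 10 share over 20%, of which Mrps25 (69.8%), Mrps27 (24.2%) and Mrps18c (23.2%) were called lower. The others include Mrps34 (77.8%), Mrpl19 (36.0%) and Mrpl43 (33.4%), which did not pass the test. Mrps27, Mrps34, Mrpl19 and Mrpl43 are named here for this overlap. The gene that overlaps Mrps18c, Gm43511, lies on the same strand. The pseudogenes Mrps36-ps1 and Mrpl23-ps1 resemble their parents closely (99.3% and 100% identity in the aligned part) and stayed at group means between 5.16 and 6.98 normalized counts.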

How the data were processed

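RNA-seq reads (single-end, total RNA, mouse) of 4 Phgdh fl/fl and 4 Phgdh fl/fl Cx3cr1-Cre TEM samples were mapped by the authors to mm10 with TopHat2, counted per gene with HTSeq 0.6 and compared with DESeq2. The values the authors deposited per gene and sample are a signal, that is, reads per gene scaled by the size factor of each sample, although the methods speak of FPKM. Whole reads came back for 100% of 144353 values above 0 (tolerance 0.01). Columns with the authors' mean, fold change, standard error, test statistic and p-values were not used.

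Genotypes were compared with limma 3.58.1 (R 4.3.3) on log2(normalized count + 1) over 13629 genes with a mean of at least 10, with a trended prior, no covariate, two-sided tests and Benjamini-Hochberg adjustment at 0.05. Fold changes of low genes are understated on this scale. edgeR 4.0.16 and DESeq2 1.42.0 on recovered reads, other filters, scalings, a GC and length correction (spline, 4 df), a replicate block and single libraries left out were alternatives. On simulated counts of 13596 genes, limma called 200 of 200 changed genes the right way and 17 unchanged ones. The planted changes were far larger than the members' median of -0.11, and lay in genes of higher count. The simulated samples had no split between replicates. This count therefore does not show how reliable calls of the members' size are.

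The members and gene lists were chosen with earlier results of these data known. Text names members with a role of their own, the 6 lowest and 3 highest of each subunit, the 2 lowest and 2 highest of each other list, Phgdh, Cx3cr1 and members below the filter. Others are marked, apart from pseudogenes of members and genes that overlap members. Annotation was GENCODE M21 (18629 of 18635 genes found) and RefSeq GRCm38.p6 promoters. Size factors leave the depth of 38219563 to 47027420 reads per sample, of which members held at least 70 reads each apart from Mrpl53.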

Additional observations from a re-analysis of the deposited data

Results flagged for a closer look

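Among 68 groups of 4 samples checked for a sample far from the others, 1 was found: Mrps15 in Phgdh fl/fl Cx3cr1-Cre replicate 2, at 1447 normalized counts against 1526 to 1527 in the other 3 samples. Chance alone marks about 1 in 20 such groups. No explanation for it was tested.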

How the results depend on the processing

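Alternatives were 11 settings on all samples, 8 fits that left out 1 library, and fits on replicates 1 and 4 or 2 and 3 alone, which were chosen after seeing the data. Both subunits kept a median log2 difference below 0 throughout. For the large subunit, 4 members were lower with replicates 1 and 4 alone, its median was -0.067 with the GC and length correction (with or without the replicate block) and -0.072 with replicates 1 and 4 alone, and 0 members were higher without a filter on low values, with the replicate block, with DESeq2, with the GC and length correction and with replicates 1 and 4 alone. Leaving out 1 library gave 14 to 24 large subunit members lower and 0 to 1 higher. For the small subunit, 4 members were lower and the median was -0.095 with replicates 1 and 4 alone, and 8 to 16 were lower when 1 library was left out (8 without Phgdh fl/fl replicate 2, 9 without Phgdh fl/fl Cx3cr1-Cre replicate 3). The cause of these changes was not tested.

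Among named genes, changes of sign touched only values that were not called. Over all members, 60 of 77 were below 0 with the GC and length correction and 58 with replicates 1 and 4 alone, against 71. With the GC and length correction, with or without the replicate block, log2 differences became 0.023 for Mrpl10, 0.028 for Mrpl24, 0.010 for Mrpl45, 0.041 for Mrps15, 0.0053 for Aurkaip1, -0.031 for Gfm2, -0.024 for Mars2, 0.015 for Rpl41 and 0.010 for Rplp0. Scaling to the total gave 0.0098 for Mrpl24, 0.0054 for Mrps10 and 0.0098 for Mrps15, and quantile normalization gave 0.017 for Rplp0. Replicates 1 and 4 alone gave 0.043 for Mrpl24, 0.076 for Mrps10, 0.00093 for Mrps15, -0.026 for Mars2 and 0.083 for Timm8a1. Replicates 2 and 3 alone gave -0.042 for Mrps18a, -0.050 for Mettl15, -0.065 for Vars2 and -0.014 for Grpel2. With 1 library left out, values ran from -0.066 to 0.00076 for Mrpl10, -0.027 to 0.0079 for Mrpl24, -0.015 to 0.016 for Mrps18a, -0.050 to 0.018 for Mrps10 and -0.018 to 0.016 for Mrps15.

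Replicate numbers are shared between genotypes, but samples with the same number deviated together only weakly (correlations of 0.063, 0.098, 0.13 and 0.078), so the numbers were not taken as pairs. With the replicate block, 21 large and 14 small subunit members were lower and 0 higher. Not every sample correlated best with its own number. Over all genes, the GC and length correction left 39.2% of calls higher, against 50.6% without it. Depth limits Mrpl53 and Mrps36 among the members.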
